A study of Mus musculus with 18 samples.

Results

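The miRNAs described here are miR-132-3p, miR-132-5p, miR-212-3p and miR-212-5p, the 4 mature products of the miR-132 and miR-212 hairpins. They were taken by name (mmu-miR-132-3p, mmu-miR-132-5p, mmu-miR-212-3p and mmu-miR-212-5p) from every table of small RNA sequencing values of a mouse study and make up 4 of the 1367 miRNAs that any table lists. All 4 are listed in each of the 5 tables. Of the 18 libraries, 15 were made from MEF, which are fibroblasts grown out of mouse embryos, and 3 from B cells of the spleen. Eu-myc is given as the strain of every library. Eu-myc mice carry a Myc transgene under an immunoglobulin heavy-chain enhancer, which is active in B-lineage cells. Both cell types were taken with the oncogenic miR-17~92 cluster floxed and present (fl/fl), with the cluster deleted (d/d), and with more of it than normal (OV). There were 3 libraries for each of these MEF groups and 1 for each B-cell group. In a second MEF set, cells that were all d/d for miR-17~92 received an empty plasmid (Empty) or overexpressed miR-290~295, a cluster typical of embryonic stem cells, with 3 libraries each. The sources used here do not give how the cluster was deleted or overexpressed, the age of the animals, or whether replicates were separate cultures, so p-values may measure technical spread only.

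Mir132 and Mir212 are processed from 1 primary transcript, and each hairpin can give a product from its 5′ arm (5p) and its 3′ arm (3p). The locus is known as a target of the transcription factor CREB, which binds cAMP response elements near it after cAMP, growth factor or neurotrophin signals. It is best known in neurons, where activity induces it and where miR-132 acts on dendrite growth. It has also been described in immune and vascular cells. CREB and its phosphorylation were not measured in these libraries, so the name of the locus as CREB-responsive is background only.

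The mature sequences are shown because the bases that choose targets are shared by the 3p products but not by the 5p products. They come from RefSeq with GRCm38.p6 positions, all 4 members matched, and capitals mark the seed, bases 2 to 8 from the 5′ end.
miR-132-3p: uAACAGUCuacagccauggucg
miR-212-3p: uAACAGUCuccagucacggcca
miR-132-5p: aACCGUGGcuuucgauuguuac
miR-212-5p: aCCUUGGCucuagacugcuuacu
The 3p arms share the seed AACAGUC, and no other mature miRNA among the 1679 in the table has it. Over all 22 bases the 3p arms are identical at 17 positions. With positions counted from the 5′ end and the base of miR-132-3p first, the substitutions in miR-212-3p are A10C, C14U, U17C, U20C and G22A, all outside the seed. The seeds of miR-132-5p and miR-212-5p, ACCGUGG and CCUUGGC, are found in no other mature miRNA of the table.

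The hairpins show where each product lies, with the 5p and 3p arms in capitals in that order.
Mir212: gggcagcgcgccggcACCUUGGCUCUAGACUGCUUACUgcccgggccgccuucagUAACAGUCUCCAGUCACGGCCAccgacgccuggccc
Mir132: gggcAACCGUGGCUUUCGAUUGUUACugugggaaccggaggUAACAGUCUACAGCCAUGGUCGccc
Both lie on the plus strand, Mir212 at chr11:75173388-75173478 and Mir132 at chr11:75173682-75173747, with 203 bases between them. In the GENCODE M21 annotation of the same assembly both are inside the first intron of the non-coding gene 1700016P03Rik (chr11:75172560-75177633, 3 exons), between exon 1, which ends at 75172597, and exon 2, which starts at 75173978. The deposited tables carry names but no coordinates.

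Values are normalized counts, that is reads per miRNA divided by 1 size factor per library, from tables without spike-in scaling unless said otherwise. RPM values are reads per 1000000 reads on all listed miRNAs. A miR-17~92 MEF library had 17191892 to 24920911 reads on listed miRNAs, a miR-290~295 library 43164128 to 58911475 and a B-cell library 10203586 to 10612256. The 8 fibroblast markers summed to between 215941 and 308437 RPM in the first MEF set, and the defining neuronal miR-124-3p was at 0 to 2.24 normalized counts there. In B cells the haematopoietic miR-142a-3p stood at 60603 to 68415 normalized counts, while miR-150-5p, a marker of mature lymphocytes, was at only 8.73 to 71.0. The 8 fibroblast markers summed to between 24705 and 56243 RPM in B cells, nearly all of it miR-21a-5p (24549 to 55212 RPM), which many cell types express. The fibroblast miR-143-3p was at 79.6 to 627 RPM in B cells against 44632 to 71681 in the first MEF set. Spike-in factors relative to the other scaling were 1.01 to 1.23 in OV and fl/fl, 0.750 to 0.831 in d/d, 1.12 to 1.31 in Empty and 0.787 to 0.963 in miR-290~295 libraries, so the scaling differs with the group.

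The locus was a minor source of miRNA reads in every group. Its 4 products together gave 18.0 to 67.6 RPM in the miR-17~92 MEF set, 53.4 to 87.7 in the miR-290~295 set and 12.6 to 21.3 in B cells. MiR-212-5p was the main product in all 18 libraries and gave 58.0% to 80.0% of the reads of the locus in the first set, 63.5% to 72.4% in the second and 67.1% to 71.1% in B cells. MiR-132-3p came second in the MEF libraries, with 13.8% to 33.3% and 17.6% to 26.0% in these sets, and miR-212-3p never passed 2.99%. By mean level miR-212-5p ranked 240 of 1204 listed miRNAs in the first set, 224 of 1265 in the second and 242 of 756 in B cells, and miR-212-3p ranked 697, 595 and 638. How evenly different miRNA sequences were captured was not tested.

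Ordered by RPM, miR-212-5p was highest in d/d MEF with miR-290~295 (60.7 ± 1.74, SD, n = 3). Then came d/d (45.8 ± 4.37), Empty (37.3 ± 4.09) and fl/fl MEF (36.5 ± 1.63), followed by d/d B cells at 15.1, OV MEF (12.0 ± 1.51), OV B cells at 9.80 and fl/fl B cells at 8.76. The ranges of d/d and Empty overlapped, as did those of Empty and fl/fl, and the top group lay above all others. MiR-132-3p followed a like order, from 15.2 ± 0.871 with miR-290~295 and 13.4 ± 0.520 in Empty through 11.5 ± 1.93 in fl/fl, 9.93 ± 2.87 in d/d and 6.05 ± 1.20 in OV MEF to 3.03, 2.06 and 1.88 in d/d, OV and fl/fl B cells. Its ranges overlapped between neighbours from Empty down to OV MEF. MiR-132-5p was also highest with miR-290~295 (7.22 ± 0.136) and in Empty (5.36 ± 0.626), then in fl/fl (3.72 ± 0.0652) and d/d (3.50 ± 0.902). OV MEF stood last for this product (1.57 ± 0.145), just under fl/fl B cells at 1.60, with OV and d/d B cells at 2.45 and 2.93. Its fl/fl and d/d ranges overlapped, and OV MEF lay below all other MEF groups. MiR-212-3p had means from 1.12 ± 0.421 with miR-290~295 down to 0.169 ± 0.114 in OV MEF, and its miR-290~295, Empty and fl/fl ranges overlapped in turn. The 3 sets were normalized separately, and no test was made between them.

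**Figure D1:**
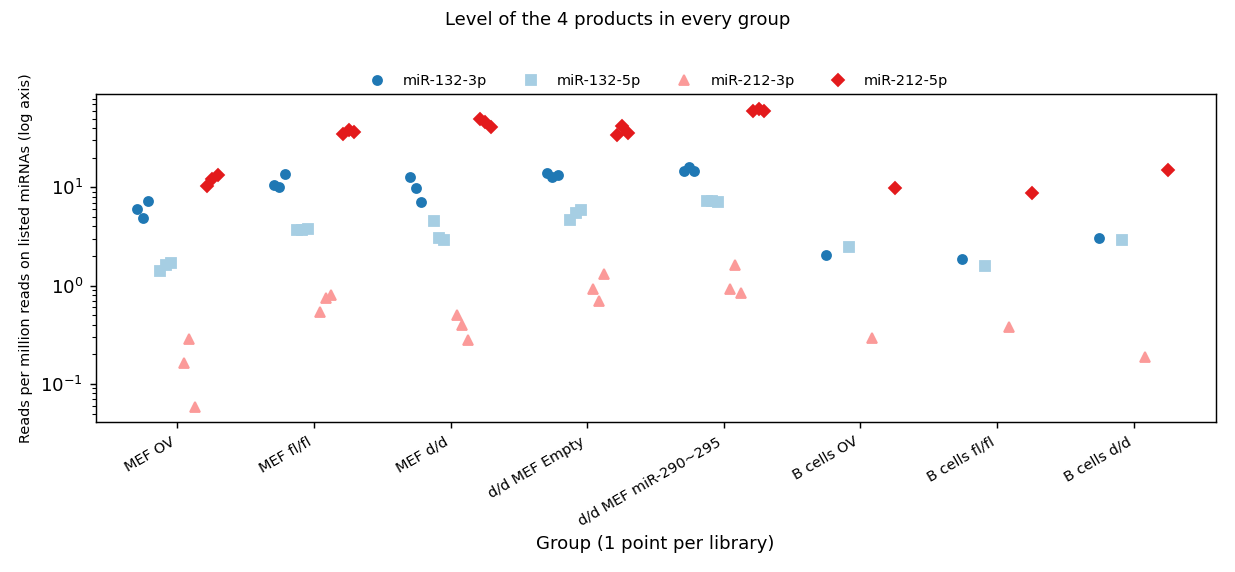
RPM, reads per 1000000 reads on listed miRNAs (log axis), of the 4 products in the 8 groups, with 1 point per library. MiR-212-5p is the highest product in every library, from 8.76 in fl/fl B cells to 62.7 in a miR-290~295 library, and miR-212-3p the lowest.

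An excess of miR-17~92 is addressed by comparing OV with fl/fl MEF. All 3 products of the locus that could be tested fell in OV, and miR-212-5p, the main product, fell the most, by 3.13-fold. MiR-212-3p, under the minimum for the test, was lower in each OV library than in any fl/fl library, and the fit without a minimum called it lower (log2 −1.91, adjusted p = 0.0151 by limma). The count of 3 of 3 called lower stands beside 31.3% called in either direction and 15.7% called lower among the 662 miRNAs tested.

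MiR-212-5p was at 191, 241 and 254 normalized counts in OV1, OV2 and OV4, against 668, 767 and 705 in FL3, FL4 and FL5. Each OV library was under all fl/fl libraries by more than the whole range of either group. The change was −1.64 ± 0.15 on the log2 scale (SE, adjusted p = 8.21e-05 by limma with Benjamini-Hochberg adjustment), the 10th lowest of 662.

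MiR-132-5p, the product that lies opposite miR-132-3p in its hairpin, was at 25.8, 32.0 and 31.9 in OV and at 70.6, 73.3 and 73.9 in fl/fl. Its fl/fl libraries lay close together and the groups did not overlap. It fell 2.39-fold (log2 −1.26 ± 0.20, adjusted p = 0.00204).

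MiR-132-3p, the product with the best-known targets, was at 110.1, 97.3 and 137 in OV and at 203, 202 and 266 in fl/fl. FL5 was the highest library, and even the lower fl/fl libraries were above OV4. It fell 1.94-fold (log2 −0.96 ± 0.22, adjusted p = 0.00861).

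MiR-212-3p rested on 3, 5 and 1 reads in OV and on 10, 13 and 14 in fl/fl, or 2.98, 5.72 and 1.10 against 10.2, 14.9 and 15.7 normalized counts. With a mean of 7.97 over the table it was under the minimum of 10 for the test. Groups that did not overlap were seen for all 4 products here. They were seen for 48.6% of the miRNAs tested, and with OV lower for 24.2% of the miRNAs tested.

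These 3 calls held in each of the 16 alternatives that tested miR-212-5p and miR-132-3p and the 15 that tested miR-132-5p, with adjusted p-values up to 0.0451. On the spike-in scale miR-212-5p was at 236, 296 and 283 in OV and at 733, 880.1 and 711 in fl/fl. MiR-132-3p was at 136, 119 and 153 against 222, 231 and 269, and miR-132-5p at 31.7, 39.3 and 35.5 against 77.4, 84.1 and 74.5. The groups stayed apart for all 3 products, and the share of all miRNAs doing so on that scale was not counted. Of the 665 miRNAs tested on it, 6.62% were called lower. The background did move with the setting: the spike-in scaled table called 112 miRNAs higher and 44 lower, re-centred medians 83 and 153, against 103 and 104, and 124 miRNAs in all were called without FL5 against 207.

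Some markers of several cell types differed between these groups, in some lists in both directions. The 8 fibroblast markers summed to 215941 to 227209 RPM in OV, to 238487 to 258324 in fl/fl and to 289936 to 308437 in d/d, carried by miR-21a-5p and miR-143-3p. Of the 8, miR-21a-5p and miR-199a-5p were lower and miR-152-3p was higher in OV than in fl/fl without overlap. Of all miRNAs tested, 24.2% were lower and 24.5% higher in this way. The 5 listed neuron markers summed to 541 to 612, 705 to 827 and 697 to 804 RPM in the same order, nearly all of it miR-128-3p. MiR-9-5p, another of them, was at 5.85 to 8.16 RPM in OV and 4.89 to 6.52 in fl/fl.

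Among epithelial markers, miR-200b-3p was at 1.19 to 1.63 RPM in OV, at 7.86 to 8.11 in fl/fl and at 0.522 to 0.933 in d/d. MiR-205-5p, another of them, was at 0.582 to 1.30, at 0.161 to 0.172 and at 0.482 to 1.19 RPM in the same order. Of the 5 listed, 1 was higher and 2 were lower in OV than in fl/fl without overlap, beside 24.5% and 24.2% of the miRNAs tested. In d/d 1 was higher and 4 were lower than in fl/fl without overlap, beside 34.9% and 33.1%. The erythroid miR-486a-5p was at 381 to 547 RPM in OV against 138 to 259 in fl/fl, while the erythroid miR-451a was at 0 to 0.287. The endothelial miR-126a-3p was at 96.6 to 112, at 102 to 113 and at 54.9 to 56.8 RPM in OV, fl/fl and d/d. The muscle miR-206-3p was at 1313 to 1593, at 1773 to 1881 and at 1082 to 1187 RPM in the same order. MiR-1a-3p, also a muscle marker, was at 1.19 to 2.38, at 1.94 to 3.49 and at 1.23 to 1.73 RPM. The part of these cell types in the levels of the locus was not tested.

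**Figure D2:**
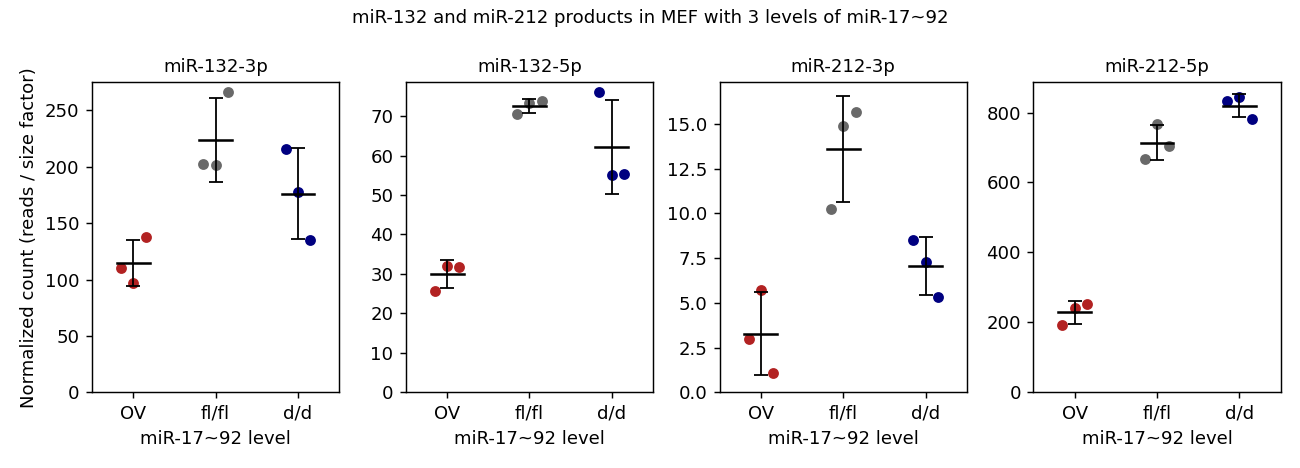
Normalized counts of the 4 products in OV, fl/fl and d/d MEF, with 1 point per library, the mean as a horizontal line and the SD as the bar (n = 3). For all 4 products the OV points lie below all fl/fl points, and for miR-212-5p the d/d points, 781 to 844, lie above them.

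Loss of the miR-17~92 cluster is addressed by comparing d/d with fl/fl MEF. Of the 3 tested products, 0 were called by limma, 0 at an unadjusted p under 0.05 and 0 by edgeR or DESeq2, beside 58.3% of 662 miRNAs. Means were higher in d/d for miR-212-5p and lower for the other products.

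MiR-212-5p was at 834, 844 and 781 in DEL1, DEL2 and DEL3. Each was above the highest fl/fl library, at 767, as was so for 34.9% of the miRNAs tested. The difference of 0.20 ± 0.15 (log2, adjusted p = 0.257) did not pass the test.

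MiR-132-3p was at 215, 178 and 135 in d/d, a wide spread in which DEL1 was above 2 of the fl/fl libraries. Its difference from fl/fl was −0.36 ± 0.22 (adjusted p = 0.183). MiR-132-5p was at 76.1, 55.2 and 55.3, with DEL1 above and the others below all fl/fl libraries, and differed by −0.24 ± 0.20 (adjusted p = 0.334). MiR-212-3p, with 12, 10 and 5 reads, was at 8.53, 7.26 and 5.32 normalized counts, each below the fl/fl values. Such a separation with d/d lower was seen for 33.1% of the miRNAs tested.

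Here the scaling mattered. With the spike-in table, miR-132-3p was called lower (−0.78 ± 0.19, adjusted p = 0.00417) and so was miR-132-5p (−0.66 ± 0.20, adjusted p = 0.0131), while miR-212-5p turned to −0.23. On that scale miR-132-3p was at 162, 148 and 112 in d/d, all under the fl/fl libraries, and miR-212-5p at 625, 701 and 649.6, also under them. With spike-ins 42.6% of 665 miRNAs were called lower in d/d, and the share lying wholly under fl/fl was not counted. That scaling moved the median of all miRNAs tested from 0.02 to −0.39, and re-centred medians moved it to −0.27. Relative to that median the changes were nearly the same, −0.37 and −0.39 for miR-132-3p and 0.19 and 0.16 for miR-212-5p without and with spike-ins. Calls over all miRNAs were 203 higher and 183 lower, against 147 and 283 with spike-ins and 162 and 245 with re-centred medians.

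OV against d/d MEF sets the highest against the lowest miR-17~92 level. MiR-212-5p was 3.59-fold lower in OV (log2 −1.85 ± 0.15, adjusted p = 2.10e-06), and miR-132-5p 2.03-fold lower (−1.02 ± 0.20, adjusted p = 0.00138). MiR-132-3p was 1.52-fold lower (−0.60 ± 0.22, adjusted p = 0.0390), but OV4, at 137, lay above DEL3, at 135. The background of this comparison was 52.4% called, 25.7% lower. The OV libraries lay below all d/d libraries for miR-212-5p and miR-132-5p, and for 29.3% of the miRNAs tested. The comparison shares its libraries with the 2 before it and adds no independent samples.

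With the spike-in table only miR-212-5p kept its call (−1.28 ± 0.16). MiR-132-3p was then at −0.04 (adjusted p = 0.881) and miR-132-5p at −0.47 (adjusted p = 0.0561), where the median of all miRNAs stood at 0.60. MiR-132-3p also lost its call in 7 other alternatives, among them those without OV1, OV2, DEL1 or DEL2, where its adjusted p was 0.0765 to 0.148. The table gave 177 miRNAs higher and 170 lower, against 333 and 120 with spike-ins.

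**Figure D3:**
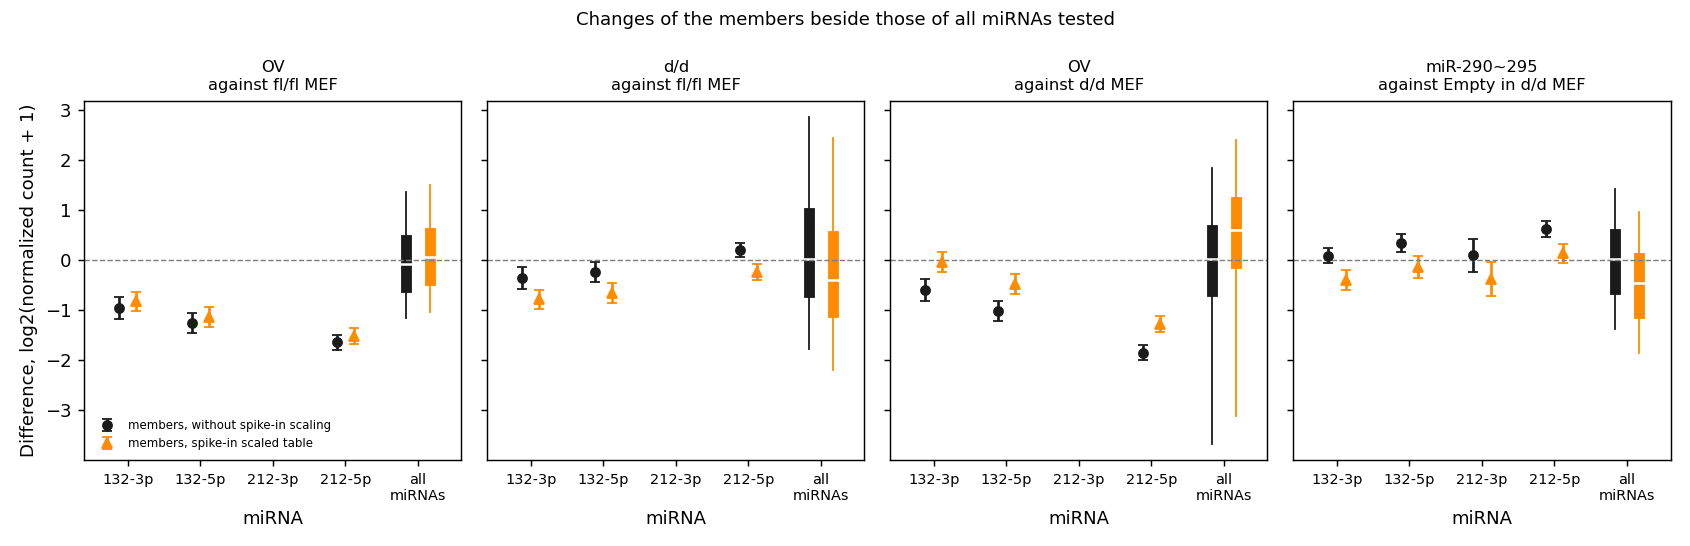
Differences of the tested products (log2 of normalized count + 1, mean ± SE) in the 4 comparisons, without (black) and with (orange) spike-in scaling, beside all miRNAs tested, shown as median (white line), middle 50% (thick bar) and 5th to 95th percentile (thin line). In OV against fl/fl the tested products lie below 0 in both scalings, and in the other comparisons the scaling shifts them together with the median of all miRNAs.

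The miR-290~295 set asks what this cluster does in cells that lack miR-17~92. MiR-212-5p was the 1 product of 4 called, 1.54-fold higher with miR-290~295, and no product was called lower. The background was 38.9% called among 840 miRNAs, 16.7% higher. Of the 8 fibroblast markers, 5 were lower and 1 was higher with miR-290~295 without overlap, beside 26.1% and 23.6% of the 840 miRNAs. MiR-143-3p was at 50661 to 67925 RPM in Empty and at 30118 to 34779 with miR-290~295. MiR-152-3p was at 2200 to 3124 against 1092 to 1441, and miR-31-5p at 256 to 302 against 553 to 739. The epithelial miR-205-5p was at 0.917 to 1.20 RPM against 0.198 to 0.224. MiR-200b-3p, also epithelial, went the other way, at 0.422 to 0.741 RPM against 0.985 to 1.47. Their part in the result was not tested.

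MiR-212-5p was at 1648, 2182 and 1819 in E1, E2 and E3 and at 2844, 2939 and 2835 with miR-290~295. The groups did not overlap, and the treated libraries lay closer together than the Empty ones. The difference was 0.62 ± 0.15 (log2, adjusted p = 0.0115 by limma), the 173rd highest of 840.

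MiR-132-5p was at 227, 286 and 299 in Empty and 347, 341 and 337 with miR-290~295, again without overlap, but its difference of 0.35 ± 0.18 did not pass (adjusted p = 0.155). Groups without overlap in this direction were seen for 23.6% of miRNAs. MiR-132-3p was at 675, 671 and 681 against 692, 758 and 702, a difference of 0.08 ± 0.15 (adjusted p = 0.682), although the groups did not overlap. MiR-212-3p, here at 40 to 73 reads per library, was at 45.0, 36.3 and 66.0 against 43.5, 75.3 and 40.1 and overlapped (0.09 ± 0.33, adjusted p = 0.851).

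On the spike-in scale 0 of the 4 products were called by limma, and 0 at an unadjusted p under 0.05. MiR-212-5p was at 2150.2, 2660.4 and 2036 in Empty and at 2739.6, 2522 and 2232 with miR-290~295, so that the groups overlapped, and the difference was 0.14 ± 0.19 (adjusted p = 0.607). MiR-132-3p, at 881, 818 and 762 against 667, 650.5 and 552, turned to a lower level without overlap, by −0.40 ± 0.20 (adjusted p = 0.120). With spike-ins 39.1% of 846 miRNAs were called lower, and the share without overlap was not counted. That table moved the median of all miRNAs from 0.02 to −0.46 and the calls from 140 higher and 187 lower to 56 and 331. Relative to the median, miR-212-5p was 0.60 higher without and 0.59 higher with spike-ins.

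**Figure D4:**
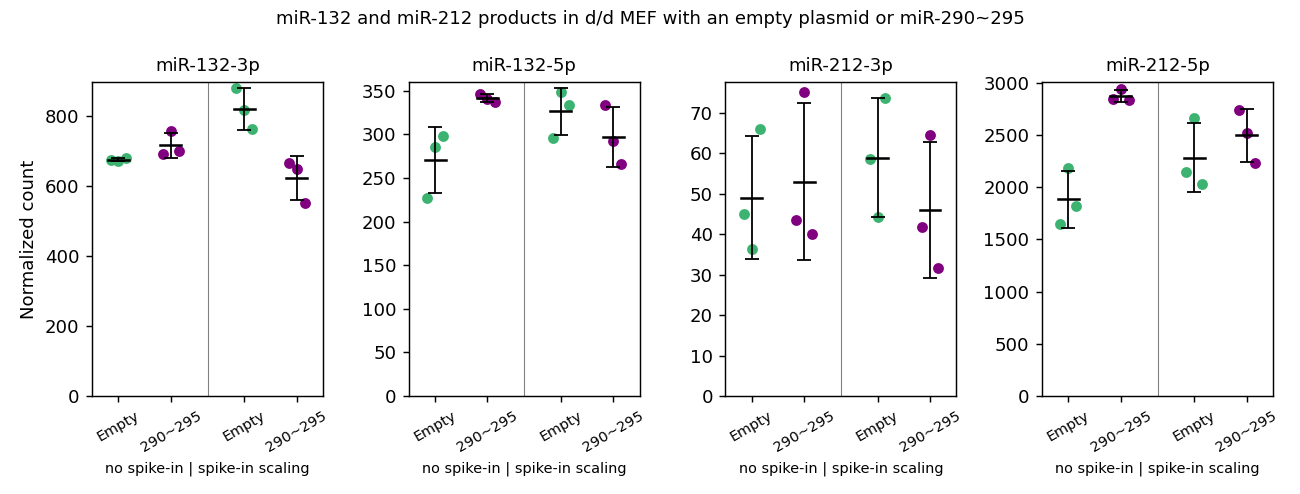
Normalized counts of the 4 products in d/d MEF with an empty plasmid or miR-290~295, in the table without (left of the line) and with (right) spike-in scaling, with 1 point per library, mean and SD (n = 3). For miR-212-5p the miR-290~295 points lie above all Empty points on the left, and the groups overlap on the right.

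Ratios of products within a library do not depend on its scaling. The ratio of miR-212-5p to miR-132-5p, the 5p products of the neighbouring hairpins, separated the MEF groups without overlap in all 4 comparisons. Levels of single miRNAs did so for 48.6% of those tested in OV against fl/fl and 68.0% in d/d against fl/fl. The shares were 58.2% in OV against d/d and 49.6% with miR-290~295. How often ratios of other miRNA pairs do so was not counted. It was lowest in OV (7.42, 7.54 and 7.97), higher in fl/fl (9.46, 10.5 and 9.55) and highest in d/d (11.0, 15.3 and 14.1). In the other set it was 7.25, 7.63 and 6.09 in Empty and 8.20, 8.61 and 8.40 with miR-290~295. Each of these 4 differences had an exact two-sided permutation p of 0.1, the smallest that 3 libraries against 3 can give, and 0.229 after adjustment over 16 ratio tests, so none passed.

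The ratio of miR-212-5p to miR-132-3p, chosen after the values were seen and not tested, was 1.74 to 2.48 in OV and 2.65 to 3.81 in fl/fl, against 3.87 to 5.79 in d/d. It was 2.44 to 3.25 in Empty and 3.88 to 4.11 with miR-290~295. The change of miR-212-5p minus that of miR-132-3p, −0.69 for OV over fl/fl, 0.56 for d/d over fl/fl and 0.53 with miR-290~295, was nearly the same with spike-ins. As a share of the reads of the locus, miR-212-5p stood at 58.0% to 64.1% in OV MEF and at 66.5% to 72.6% in fl/fl MEF. It stood at 73.5% to 80.0% in d/d MEF, and the 3 ranges did not overlap. How often shares at other loci separate in this way was not counted. In B cells the shares were 67.1%, 69.4% and 71.1% in the same order, from 149, 134 and 225 reads.

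The arms of the hairpins were used in opposite ways. For miR-212 the 5p arm gave 97.7% to 99.6% of the reads of the hairpin in the miR-17~92 MEF set, 96.5% to 98.6% in the miR-290~295 set and 95.9% to 98.8% in B cells. For miR-132 the 3p arm led in MEF, and the 5p arm gave 18.8% to 29.1% and 25.2% to 33.4%. Arm ratios of miR-132 overlapped between groups in the 3 comparisons of the first set. With miR-290~295 the ratio of 5p to 3p was 0.501, 0.450 and 0.481 against 0.337, 0.426 and 0.439 in Empty (exact permutation p = 0.1, adjusted 0.229). The ratio of miR-212-5p to miR-212-3p was 97.8, 116 and 147 in d/d against 65.3, 51.5 and 45.0 in fl/fl (exact permutation p = 0.1, adjusted 0.229), on 5 to 14 reads of the 3p product per library.

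In B cells the miR-132 arms were nearly even. The 5p arm gave 31 of 63 reads in d/d (49.2%, exact 95% binomial interval 36.4% to 62.1%), 17 of 37 in fl/fl (45.9%, 29.5% to 63.1%) and 25 of 46 in OV (54.3%, 39.0% to 69.1%). All 3 shares were above those of the 15 MEF libraries, but the fl/fl interval reached into the MEF range. Intervals cover counting error only, the sets were normalized and filtered separately, and no test was made between cell types.

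**Figure D5:**
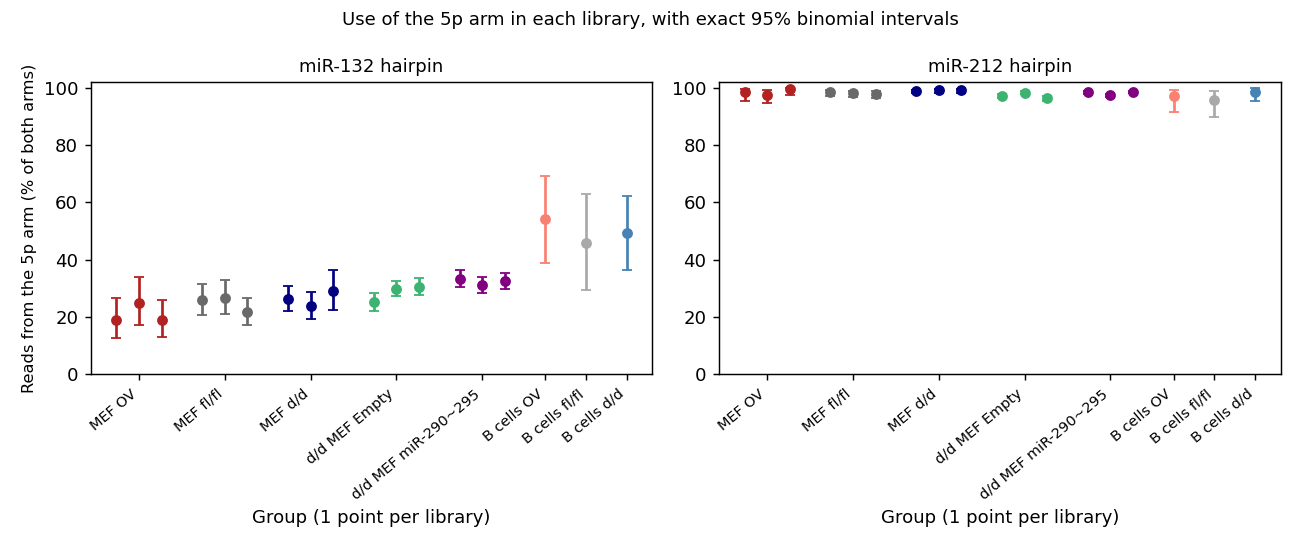
Share of reads from the 5p arm among reads from both arms of the miR-132 (left) and miR-212 (right) hairpin, with 1 point per library and its exact 95% binomial interval. The miR-132 share is 18.8% to 33.4% in MEF and 45.9% to 54.3% in B cells, and the miR-212 share is above 95% everywhere.

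B cells had 1 library per group, so differences between them have no replicate check. The locus was lower there than in most MEF groups and rested on 134 to 225 reads per library. MiR-212-5p had 100 reads in the OV, 93 in the fl/fl and 160 in the d/d library, or 134, 87.7 and 127 normalized counts. OV was 1.53-fold over fl/fl (95% interval 1.14 to 2.05 for counting error only), and d/d 1.45-fold over fl/fl (1.12 to 1.89).

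MiR-132-3p, from 21, 20 and 32 reads, was at 28.1, 18.9 and 25.4 normalized counts in that order, and both ratios to fl/fl had intervals that include 1. MiR-132-5p, from 25, 17 and 31 reads, was at 33.5, 16.0 and 24.6. Its OV level was 2.09-fold over fl/fl (1.08 to 4.12), the 1 product past 2-fold, beside 13.7% of 476 miRNAs past 2-fold in either direction and 6.72% higher. For d/d against fl/fl 35.5% of miRNAs were past 2-fold, and no product with over 4 reads was. MiR-212-3p had 3, 4 and 2 reads, and a difference was not detectable at this depth.

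In RPM the OV level of miR-212-5p was 1.12-fold over fl/fl (0.835 to 1.50) and the d/d level 1.73-fold (1.33 to 2.25), since that scale moved the median of all miRNAs to −0.43 and 0.24 on the log2 scale. The fibroblast miR-143-3p was at 5266 normalized counts in the d/d B-cell library against 1303 in fl/fl and 1088 in OV, and miR-199a-3p at 1496 against 341 and 367. Whether fibroblast RNA has a part in the B-cell levels of the locus was not tested. Fewer cells of a type and less RNA per cell cannot be told apart in any of these bulk libraries.

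Other miRNAs tied to stimulus-driven transcription, such as those induced by growth factors, cAMP, serum or inflammation, were called in both directions in OV against fl/fl. Of 24 such miRNAs, 4 are also among the 8 fibroblast markers. By limma 5 of the 24 rose and 3 fell in OV against fl/fl MEF, near the 15.6% higher and 15.7% lower of all miRNAs. Their median was 0.23 against −0.07 over all miRNAs. With re-centred medians the split was 3 and 3, beside 12.5% and 23.1% of all miRNAs. With spike-ins it was 5 and 0, beside 16.8% and 6.62%. MiR-146a-5p, an NF-kappaB target, rose 2.85-fold (log2 1.51 ± 0.15, adjusted p = 9.72e-05 by limma), and miR-146b-5p 1.90-fold. MiR-221-5p was 1.58-fold lower (adjusted p = 0.0159), a call lost with spike-ins. For d/d over fl/fl, 2 rose and 13 fell, where 30.7% of all miRNAs rose and 27.6% fell. MiR-146b-5p (−1.56 ± 0.17) and miR-34c-3p (−1.77 ± 0.38), a p53 target, were among those that fell. No member of the list rose with spike-ins, beside 22.1% of all miRNAs, or with re-centred medians, beside 24.5%.

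In OV against d/d, where 26.7% of all miRNAs rose and 25.7% fell, 12 members of that list rose and 1, miR-21a-5p, fell, by −0.42 ± 0.09, which turned to 0.14 with spike-ins. With miR-290~295, 9 rose and 4 fell, beside 16.7% and 22.3% of all miRNAs. The split was 7 and 7 with spike-ins, beside 6.62% and 39.1%. MiR-222-3p and miR-222-5p, from 1 hairpin known for targeting the cell-cycle inhibitor p27, rose 3.77-fold and 2.76-fold, while miR-146a-5p fell by 2.19 ± 0.20 on the log2 scale and miR-145a-5p by 1.35 ± 0.24.

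Of 24 miRNAs linked to neuronal activity, 19 were tested in the miR-17~92 set and 20 in the other. In OV against fl/fl 2 rose and 4 fell, with miR-129-5p up 3.20-fold and miR-485-5p, from the imprinted Dlk1-Dio3 locus, down 2.29-fold (log2 −1.20 ± 0.27, adjusted p = 0.00814). In d/d against fl/fl 6 rose and 6 fell, 7 rose and 6 fell in OV against d/d, and 4 rose and 6 fell with miR-290~295. Over all miRNAs 31.3% were called in the first of these 4 comparisons, 58.3% in the second, 52.4% in OV against d/d and 38.9% with miR-290~295. With spike-ins these splits were 2 and 1, 6 and 10, 11 and 5, and 2 and 10. On that scale 16.8% of all miRNAs rose and 6.62% fell in the first comparison, and 22.1% and 42.6% in the second. The shares were 50.1% and 18% in OV against d/d, and 6.62% and 39.1% with miR-290~295. In the comparisons with d/d the largest changes belonged to Dlk1-Dio3 members, such as miR-329-3p, 7.91-fold higher in d/d than in fl/fl and 13.2-fold lower in OV than in d/d. The list names activity, but in these fibroblasts the neuron-defining miR-124-3p was near 0.

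RefSeq places 29 other mature miRNAs within 5 Mb on chromosome 11, of which 12 were tested in the miR-17~92 set and 15 in the other. In OV against fl/fl limma called 1 higher and 0 lower, edgeR and DESeq2 did likewise, and 0 were lower at an unadjusted p under 0.05. With 15.6% of all miRNAs called higher and 15.7% lower, a count of 0 among 12 says little about the neighbours. In OV against d/d 2 neighbours, miR-423-5p and miR-423-3p, rose and 1, miR-365-2-5p, fell (−0.79 ± 0.16, adjusted p = 0.00141 by limma), beside 26.7% and 25.7%. With spike-ins 5 rose and 0 fell, beside 50.1% and 18% of all miRNAs. MiR-22-3p, named after its values were seen because its hairpin is the nearest of those tested, differed between OV and fl/fl by −0.07 ± 0.13 (adjusted p = 0.679). MiR-195a-3p was the 1 called higher there, by 0.77 ± 0.24 (adjusted p = 0.0361), a call lost in 8 of its alternatives.

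In d/d against fl/fl 3 neighbours rose and 0 fell by limma, edgeR and DESeq2, beside 30.7% and 27.6% of all miRNAs by limma. At an unadjusted p under 0.05, 1 was lower. With spike-ins 1 rose and 3 fell, beside 22.1% and 42.6% of all miRNAs. With miR-290~295, 5 of 15 rose by limma, 4 by edgeR and 7 by DESeq2. By any of them, or at an unadjusted p under 0.05, 0 fell. Over all miRNAs 16.7% rose and 22.3% fell by limma, and the median was 0.47 for the neighbours against 0.02. With spike-ins 1 neighbour rose and 1 fell, beside 6.62% and 39.1% of all miRNAs. MiR-195a-3p (0.80 ± 0.16, adjusted p = 0.00361) and miR-7653-5p (1.64 ± 0.39, adjusted p = 0.0101) changed the most there. MiR-22-3p and miR-22-5p, the nearest miRNAs tested and also on the stimulus-linked list, were called in none of the 4 comparisons by limma.

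Over the 9 libraries of the miR-17~92 set the products of the locus varied together, as a description of libraries that share the 3 groups and their scaling. Pearson's r of log2 values was 0.94 between miR-132-5p and miR-212-5p, 0.89 between the miR-132 arms, 0.78 between miR-132-3p and miR-212-5p and 0.73 between the miR-212 arms. Among other miRNAs, those most like miR-132-3p were miR-26b-3p (r = 0.90), miR-3068-3p (0.89), miR-6997-5p (0.87), miR-421-3p (0.86) and miR-128-3p (0.84). Those most like miR-212-3p were miR-99a-5p (0.90), miR-6896-5p (0.89), miR-421-3p (0.87), miR-125b-2-3p (0.85) and miR-3084-5p (0.84), on the few reads of that product.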

How the data were processed

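Small RNAs were sequenced from 15 MEF and 3 B-cell libraries, with gel-purified RNA, added spike-ins and the NEBNext kit per the labels' protocols. The deposited signal values are size-factor normalized: each library's reads on a mature miRNA over 1 common divisor. The submitters' processing notes name DESeq2. For the aligner, counter, annotation, build and filter: not given in the sources used here. All deposited values were whole multiples of 1 read's value (100%, tolerance 0.001), which gave whole reads. The 33 deposited rlog (log2 scale) columns were not used. OV and fl/fl MEF columns carry numbers of their own and were used by group.

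Tables without spike-in scaling were tested with limma 3.58.1 in R 4.3.3 (mean-variance trend, log2 of normalized count + 1, mean of at least 10, Benjamini-Hochberg at 0.05 over all miRNAs kept), with the 9 or 6 libraries of a set in 1 fit. Alternatives were edgeR 4.0.16 and DESeq2 1.42.0 on recovered reads, other pseudocounts, minimums and scalings, and leaving out each library. The fit was tested on simulated data. Ratios used exact permutation tests (scipy 1.17.1). B cells have exact intervals only. Same-numbered libraries of the miR-290~295 set did not deviate together (r = 0.28, 0.012 and −0.26).

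The products, lists and markers were chosen with earlier results of these data known. Named were the 4 products, per list and comparison the called miRNAs with the largest changes in each direction, and the 5 miRNAs most like miR-132-3p and miR-212-3p.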

Additional observations from a re-analysis of the deposited data

Results flagged for a closer look

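In normalized counts the change in OV against fl/fl had opposite signs in the 2 cell types. Every OV library was below every fl/fl library in MEF, and the OV library was above the fl/fl library in B cells. The B-cell ratio of OV to fl/fl was 1.49 for miR-132-3p, 2.09 for miR-132-5p, 1.07 for miR-212-3p (3 against 4 reads) and 1.53 for miR-212-5p. Intervals for counting error included 1 for miR-132-3p (0.770 to 2.90) and miR-212-3p (0.156 to 6.30). Those of miR-132-5p (1.08 to 4.12) and miR-212-5p (1.14 to 2.05) did not. The share of all miRNAs with opposite signs in the 2 cell types was not counted. The difference between cell types was not tested, since B cells have 1 library per group. In RPM the B-cell ratios were 1.09, 1.53, 0.780 and 1.12, with intervals for counting error that all include 1.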

How the results depend on the processing

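Among 64 counts of called products under alternatives, 60 were within 1.5 times the value reported. A fall from 3 called products to 2 stays within that limit, so the 60 include alternatives in which a call was lost. In OV against d/d miR-132-3p was called in only 8 of 16 alternatives. With spike-in scaling 2 products were called in d/d against fl/fl, 1 in OV against d/d and 0 with miR-290~295, and with re-centred medians 1 was called in d/d against fl/fl. With spike-ins the changes turned to −0.23 for miR-212-5p and to 0.14 for miR-21a-5p in the comparisons given above, and with miR-290~295 to −0.40 for miR-132-3p, −0.14 for miR-132-5p and −0.38 for miR-212-3p. With re-centred medians they turned to −0.082 for miR-212-5p in d/d against fl/fl, and to −0.022 for miR-132-3p and −0.014 for miR-212-3p with miR-290~295. These scalings shift all miRNAs of a library together. Leaving out 1 library at a time, the change of miR-212-3p with miR-290~295 ranged from −0.19 (without its second treated library) to 0.32, and it was −0.10 without E2. Likewise, the log2 ratio difference ranged from −0.0028 to 0.22 for the miR-132 arms in d/d against fl/fl, and for the miR-212 arms from −0.033 to 1.19 in OV against fl/fl and from −1.19 to 0.039 in OV against d/d. For miR-212-3p to miR-132-3p with miR-290~295 it ranged from −0.23 to 0.24. The cause was not tested. The B-cell ratio of miR-212-5p in OV moved to 1.12 in RPM.

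With the replicate number as a block, 1 product was called in the miR-290~295 set, as without it, and 298 miRNAs against 327. No paired analysis was possible in the miR-17~92 set because its OV columns are numbered 1, 2 and 4 and its fl/fl columns 3, 4 and 5, while the titles run from 1 to 3. Depth limited miR-212-3p in the miR-17~92 set and B cells (1 to 14 reads).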

Other observations

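The miRNAs most like miR-212-5p over the 9 libraries of the miR-17~92 set, a list added after the values were seen, were miR-182-5p (Pearson's r = 0.97), miR-1247-3p (0.96), miR-96-5p (0.96), miR-10a-5p (0.95) and miR-181a-2-3p (0.92). MiR-182 and miR-96 are products of 1 cluster known from sensory epithelia. All 5 were called lower in OV against fl/fl MEF, from −0.48 for miR-10a-5p to −1.87 for miR-1247-3p, beside 15.7% of all miRNAs tested. None was called in d/d against fl/fl, where 58.3% of all miRNAs were. With spike-ins miR-10a-5p lost the first call (adjusted p = 0.0845 by limma). On that scale miR-10a-5p and miR-182-5p were called lower in d/d (adjusted p = 0.0343 and 0.0237 by limma), beside 42.6% of all miRNAs. With miR-290~295 4 of the 5 were called lower, unlike miR-212-5p, with miR-1247-3p at −2.54. Over all miRNAs 22.3% were called lower and 16.7% higher there. MiR-10a-5p was called higher at 0.42, a call lost with re-centred medians (adjusted p = 0.0702 by limma) and with spike-ins (adjusted p = 0.744). The first-set values follow from the choice by likeness, and only the miR-290~295 values come from libraries that the choice did not use.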
